A study of Mus musculus with 2 samples.

Results

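Mouse chondrocyte RNA was examined over 3382 transcribed regions that the array design names by mm9 coordinates and a strand letter instead of by a gene. A region was kept when at least 3 different probes carried the same coordinates and strand. The rule left aside 1225 coordinate regions with 1 or 2 probes and 3 coordinate names without a strand letter, so that 3382 of 4607 regions were taken, with 14421 of the probes on the array. The rule used the names and the number of probes, not their intensities. Both arrays held RNA of primary chondrocytes of 6-day-old C57BL/6J mice, grown in fibronectin-coated stretch chambers. The first sample was collected before loading, and the second 24 h after 30 min of cyclic tensile strain at 0.5 Hz and 10% elongation. The question was which transcripts differed 24 h after loading. Each time point was 1 array, no array of unstrained cells at 24 h was used here, and the labels do not say how many animals or chambers gave each RNA. Loading, 24 h of further culture and the difference between any 2 cultures therefore cannot be told apart, and no test or p-value was possible.

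Much of the mammalian genome is transcribed into RNA that encodes no protein. Long noncoding RNAs are generally less abundant and more cell type-restricted than mRNAs, and some act close to their own gene, as scaffolds, as decoys or through the act of transcription. Antisense transcripts run over the same stretch of DNA in the opposite direction, and a strand-specific probe reads only 1 of the 2 RNAs. Where the labelling of total RNA starts from poly(A) tails, RNA without a tail is poorly represented on an array.

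The regions spread over chromosomes 1 to 19 and X, with 1694 on the forward (F) and 1688 on the reverse (R) strand. Their widths ran from 196 to 538251 bases. Most regions carried 3 probes (1809 regions) or 5 probes (973 regions), and the highest number was 10 (147 regions). Every probe had 1 spot per array. The probe sequences and an mm9 annotation were not used here, so no gene, exon or intron is assigned to a region, and a region may lie within or next to a known gene.

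Values are given as the spot's processed intensity and, on the log2 scale, as the level relative to the 75th percentile of the array, which stood at an intensity of 466.4 on the array before loading and of 466.2 on the 24 h array. The log2 ratio is the level at 24 h minus the level before loading. A value after ± is the within-array error that the scanner software gives for a spot, combined over both arrays, or its median over the probes of a region. It does not cover the spread between cultures. The lowest intensity that the software called well above background was 17.3 on the first array and 17.8 on the second, although some spots somewhat above these values were not called. The 10 chondrocyte markers looked at were well above background on both arrays, with the cartilage collagen gene Col2a1 at an intensity of 499542.7 and 474875.9. Log2 summed levels of macrophage markers (5 of 5 on the array detected) were 3.17 and 3.11. Those of endothelial markers (2 of 4 detected, with the defining markers Cdh5 and Tek not well above background) were 4.79 and 4.75. Single genes carried most of both sums, Csf1r with levels of 2.97 and 2.82 and Kdr with 4.78 and 4.73. Erythroid markers (1 of 4 detected) had -2.57 and -2.46, skeletal muscle markers (3 of 6) 0.92 and 0.69, and tenocyte markers (2 of 3) 2.52 and 2.17. Osteoblast markers (2 of 3 on the array detected) went from -0.45 to -1.996. That fall was mainly in Ibsp, with levels of -0.85 and -2.91, while Sp7 had -2.56 and -3.21. The part of other cell types in the results below was not tested.

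The share of region probes with a signal depended on the detection rule. Of 14419 probes left after outlier flags, 42.2% were well above background before loading, 40.4% at 24 h and 37.9% on both arrays, against 68.9% on both arrays for RefSeq mRNA probes and 44.8% for RefSeq noncoding RNA probes. Counted as above 95% of the negative controls instead, 70.3% of the region probes were detected before loading and 67.3% at 24 h. A further 626 region probes were above background before loading only and 368 at 24 h only. Before loading was also the larger count over all 55678 probes (1852 against 972) and over the 26536 RefSeq mRNA probes (659 against 335). The detected region probes were dim, with a median level of -2.34 before loading and -2.39 at 24 h, and 17.3% of them lay above the 75th percentile of the array, compared with 55.8% of mRNA probes. None was saturated. By region, 1022 regions had no probe well above background on both arrays and 1477 had 1 or 2. The other 883 regions (26.1%), 423 on the forward and 460 on the reverse strand, had at least 3 and are called measured here. In 468 of these all probes were detected. The results on change below cover the 883 measured regions and do not describe all 3382.

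Detection went with region width. Of regions shorter than 1 kb, 13.3% were measured (91 of 683), against 26.2% at 1 to 10 kb, 31.3% at 10 to 50 kb and 30.3% at 50 kb or more. The shortest class carried a median of 3 probes and the classes from 10 kb upwards a median of 5. The share of single probes detected on both arrays differed less, at 31.6% in the shortest class and 38.3% to 39.1% in the other classes. Among chromosomes the measured share ran from 17.8% on chromosome 9 (29 of 163 regions) to 36.7% on chromosome 5 (72 of 196 regions).

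The level of most measured regions was close on both arrays. The median log2 ratio of a region had a median of -0.01 over the 883 regions, with a 5th percentile of -0.50, a 95th percentile of 0.41 and an SD of 0.31. The 426 mRNA accessions with at least 3 detected probes had a median of -0.03 and an SD of 0.28. Past 0.5 on the log2 scale lay 21 of the 883 regions upwards and 44 downwards, against 9 and 16 of the 426 mRNA accessions.

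**Figure D1:**
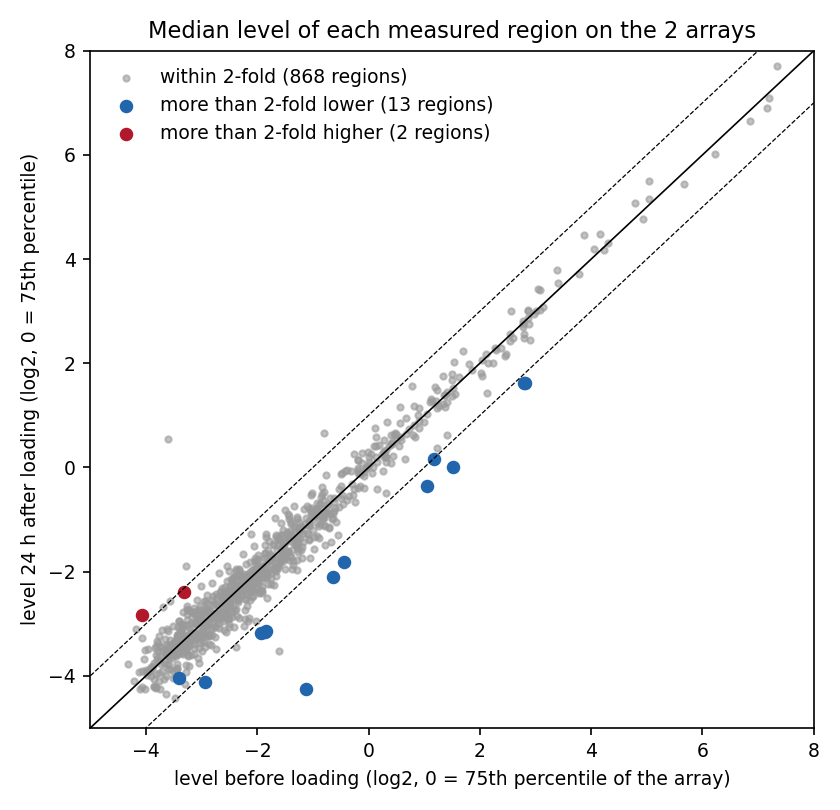
Median level over the detected probes of each of the 883 measured regions before loading (x axis) and 24 h after loading (y axis), in log2 units with 0 at the 75th percentile of the array. The solid line marks equal levels and the dashed lines a 2-fold difference. The 13 regions with a median log2 ratio below -1 (blue) span levels from -3.41 to 2.80 before loading, and the 2 above 1 (red) lie at -4.08 and -3.32. A grey point far from the line has a median ratio within 2-fold, because the median of the ratios is not the difference of the median levels.

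More than 2-fold higher were 2 regions and more than 2-fold lower were 13 regions, of 883. The background is small in both directions: of 30646 detected single probes of any kind, 0.669% passed 2-fold upwards and 1.60% downwards, and of 456 other identifiers with at least 3 detected probes, the median of 0 (0%) passed 2-fold upwards and of 2 (0.439%) downwards. The region probes taken singly had 0.824% higher (45 of 5460) and 1.41% lower (77), close to the background of all single probes. Since 3 of the 13 lower regions overlap on the same strand, the lower regions stand for 11 loci. With another background correction (normexp), which draws the ratios of dim spots towards 0, 0 regions passed 2-fold upwards and 5 downwards, all 5 among the 13.

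**Figure D2:**
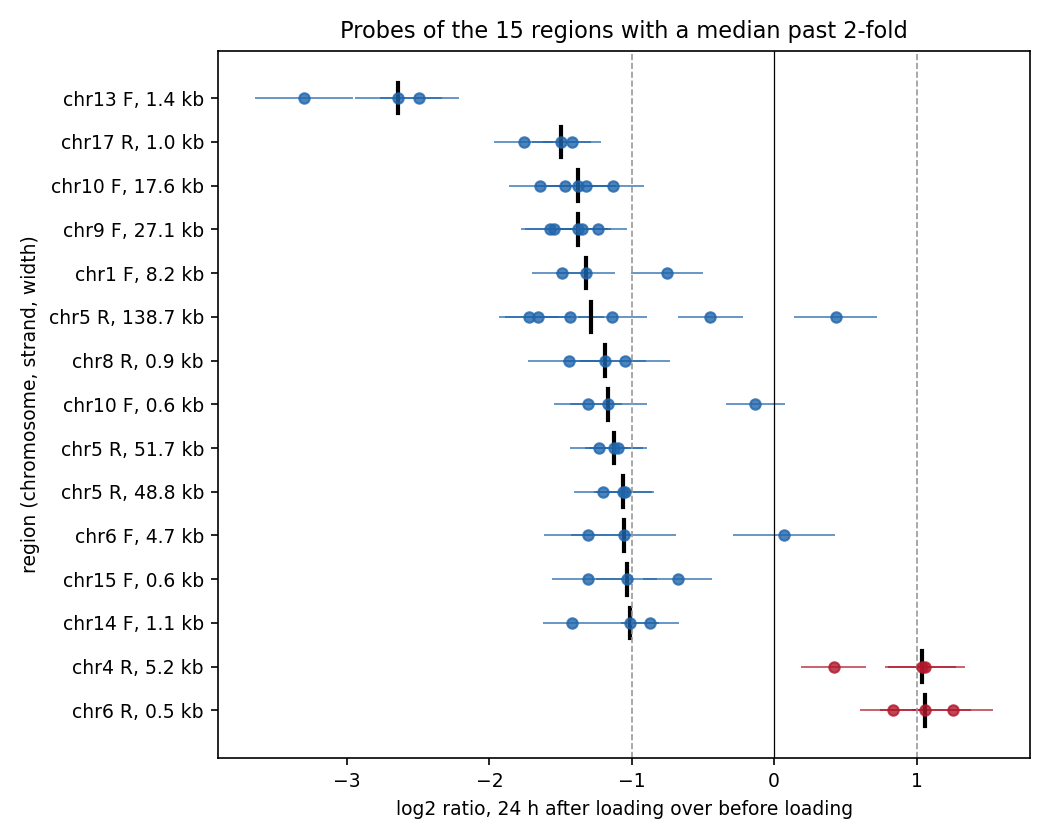
Log2 ratio (24 h over before loading, x axis) of each detected probe of the 15 regions with a median past 2-fold, named by chromosome, strand and width. Circles are probes, horizontal lines their within-array error, black bars the region medians, and dashed lines 2-fold. The chr5 region of 138.7 kb, the chr10 region of 0.6 kb and the chr6 F region of 4.7 kb each hold a probe with a ratio between -0.13 and 0.43, while all probes of the other 10 lower regions lie at -0.68 or below.

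The widest change of a region median was on the forward strand of chromosome 13, at chr13:21860993-21862345. Its 3 probes had intensities of 224.6, 152.7 and 214.6 before loading and 22.8, 24.5 and 38.2 at 24 h, which gave log2 ratios of -3.30 ± 0.34, -2.64 ± 0.31 and -2.49 ± 0.28. All 3 were therefore lower, 6.23-fold at the median, and at 24 h they were dim, near the limit of detection for the first 2 probes. The normexp correction gave -1.30 for this region.

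A pair of further lower regions of moderate brightness had probes that all passed 2-fold. On the reverse strand of chromosome 17, the 3 probes of chr17:34018371-34019394 went from 575.5, 1467.4 and 969.0 to 169.8, 521.0 and 361.7, with log2 ratios of -1.76, -1.49 and -1.42 (each ± 0.20 to 0.21). On the forward strand of chromosome 9, chr9:14460976-14488051 had all 5 probes detected, and the median level went from 1.51 to 0.00 with probe ratios between -1.58 and -1.24 and a median of -1.37 ± 0.20. The spread between the probes of these regions was smaller than their distance from 0. Normexp left both past 2-fold, at -1.32 and -1.28. Inside the chromosome 9 region on the same strand lies chr9:14480441-14483362, which had 2 detected probes of 3 and was not measured. Its detected probes did not follow, with log2 ratios of -0.27 and 0.83. The probe at 0.83 was bright (8706.5 before loading and 15475.9 at 24 h) and lay in an area where neighbouring spots had changed.

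On the forward strand of chromosome 10, all 5 probes of chr10:117021051-117038683 were lower, with intensities of 214.1 to 406.7 before loading and 82.3 to 146.7 at 24 h. The log2 ratios lay between -1.64 and -1.13, and the median was -1.38 ± 0.22. At chr1:71939741-71947891, forward strand, the ratios were -1.49, -1.32 and -0.75, so that 1 of the 3 probes stayed within 2-fold. With normexp the medians of these 2 regions were -0.97 and -0.95, just inside 2-fold.

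The remaining lower regions outside chromosome 5 were closer to the threshold. The reverse-strand region chr8:19783770-19784669 had probes at -1.44, -1.19 and -1.05, all with intensities of 57.4 to 70.5 before loading and 26.0 to 27.8 at 24 h. The forward-strand region chr15:97925615-97926199 had -1.30, -1.03 and -0.68, and chr14:21460230-21461364, also forward, had -1.42, -1.01 and -0.87. In the other 2 regions the probes did not move together: chr10:96098058-96098623 (forward) had -1.31, -1.16 and -0.13, and chr6:117829576-117834247 (forward) had -1.31, -1.06 and 0.07. In the chromosome 10 region the probe that hardly differed was the brightest, with 295.9 before loading and 269.9 at 24 h. With normexp none of these 5 regions stayed past 2-fold, with medians of -0.46 (chromosome 8), -0.61 (chromosome 15), -0.91 (chromosome 14), -0.55 (chromosome 10) and -0.29 (chromosome 6). Under median and spike-in scaling the regions of chromosomes 14, 15 and 6 were also within 2-fold, and with the mean over the probes those of chromosomes 10 and 6 were (-0.87 and -0.77).

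Both higher regions were dim. The reverse-strand region chr6:126768864-126769326 had intensities of 72.2, 27.7 and 27.6 before loading and 128.8, 57.7 and 65.8 at 24 h, with log2 ratios of 0.84 ± 0.23, 1.06 ± 0.32 and 1.25 ± 0.28. The reverse-strand region chr4:114627748-114632898 had 3 detected probes of 5, with log2 ratios of 0.42, 1.04 and 1.06. Another probe was above background at 24 h only, at an intensity of 62.1 against 23.5 before loading, and the last was not detected on either array. All detected probes of both regions were higher at 24 h, but with normexp the medians were 0.38 and 0.54. The brightest detected probe of each, at 0.84 and 0.42, was within 2-fold.

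Just inside the 2-fold limits lay chr17:32213027-32228368 (reverse) at -0.96, chr14:21437920-21464655 (forward) at -0.95 and chr1:183783306-183834531 (reverse) at 0.95, next to -1.01 and 1.04 of the nearest regions beyond them. The next highest medians were 0.91 at chr5:109156118-109156422 (forward), 0.88 at chr12:53669892-53710742 (forward), 0.79 at chr2:175432867-175469471 (reverse) and 0.76 at chr6:42659063-42660071 (reverse). They were followed by 0.68 at chrX:47893703-47996700 (reverse) and at chr15:83091086-83093818 (reverse). The probes of the chromosome 6 region lay close together, at 0.71, 0.76 and 0.84.

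The brightest regions differed little. At chr19:5801802-5802597 (reverse) the intensities were 161692.1, 47358.5 and 75484.9 before loading and 201191.4, 59217.0 and 96939.3 at 24 h, with log2 ratios of 0.32 to 0.36. The neighbouring forward-strand regions chr17:39982023-39983277 and chr17:39983902-39985688, had medians of -0.20 and -0.28. The medians of chr17:17481706-17482457 (reverse) and chr6:116123643-116124550 (forward) were -0.10 and -0.26. The probe ratios of these 5 regions ran from -0.40 to 0.36, with a within-array error of 0.20 per probe. The sign at chr17:17481706-17482457 depended on the scaling, with a median of 0.07 after quantile normalization.

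A single region had all of its probes above background on 1 array and none on the other. The 3 probes of chr1:73664661-73911040 (reverse) had intensities of 24.6 to 27.1 before loading and 9.56 to 20.2 at 24 h, where they were not well above background. The level before loading was at least 1.34-fold higher at the median, leaving the within-array error aside. For each probe at 24 h this takes the higher of its own signal and the lowest signal called above background. The region was picked because its probes were called before loading only, so the direction followed from the choice. At least 3 probes were above background before loading only in 6 regions and at 24 h only in 1 region, this one included among the 6.

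The agreement between the probes of a region depended on how bright the region was. The range between the highest and lowest log2 ratio of a region had a median of 0.40, against 0.34 over the 426 mRNA accessions with at least 3 detected probes. A range tends to widen with the number of probes, of which the 883 regions held 3442 and the 426 mRNA accessions 1345. Where the mean level of the region was above 0 the median range was 0.25 (139 regions) against 0.29 for mRNAs, between 0 and -2 it was 0.34 against 0.37, and at -2 or below 0.49 (474 regions) against 0.46. By class the median range was thus narrower than that of mRNAs in the 2 brighter classes and wider in the dimmest. The dimmest class held more than 1 in 2 of the regions. The SD of the ratios within a region went the other way in each class. It was 0.240 against 0.207 for mRNAs above 0, 0.295 against 0.290 between 0 and -2, and 0.314 against 0.349 at -2 or below. Levels were not alike within a class, with a median of 1.28 against 2.18 above 0 and -2.95 against -2.44 at -2 or below. Of the variance of the probe ratios, 44.0% lay between regions, the same share as between mRNA accessions. The level itself varied far more between the probes of a region, with a median range of 2.11 on the log2 scale, against 3.34 for mRNAs.

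All detected probes had the same sign in 353 regions (40.0%), of which 149 were higher and 204 lower at 24 h, compared with 47.2% of the mRNA accessions, which are brighter and have fewer detected probes each. At a mean level above 0 the share was 54.7% against 49.2% of mRNA accessions, between 0 and -2 it was 46.3% against 43.8%, and at -2 or below 32.1% against 44.0%. Of the 11 regions with 10 detected probes, 1 had all probes on the same side of 0: chr17:26911397-26917047 (forward), with ratios from 0.03 to 0.33. In 3 others 9 of the 10 probes were higher, with medians of 0.36 at chr12:110944403-110988678 (forward), 0.42 at chr16:43623581-43642715 (forward) and 0.46 at chrX:90997595-91009570 (reverse).

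Probes past 2-fold upwards mostly stood alone in their region, while downwards they came singly and in groups. In 52 of the 883 regions (5.89%) at least 1 detected probe was past 2-fold, against 9 of the 426 mRNA accessions (2.11%). By level the shares were 7.19% against 0.379% above 0, 3.33% against 3.57% between 0 and -2, and 6.96% against 8.0% at -2 or below. Such a share rises with the number of probes, and the 883 regions held 3442 detected probes and the 426 mRNA accessions 1345. Of all detected probes taken singly, 0.824% of region probes and 0.662% of mRNA probes were more than 2-fold higher. More than 2-fold lower were 1.41% and 1.65%. In 37 of the 52 regions the region median stayed within 2-fold. Upwards, 27 probes in 25 regions passed 2-fold, of which 23 regions had 1 such probe, 2 had 2 and none had 3. Downwards, 53 probes in 27 regions did, of which 14 regions had 1 such probe, 5 had 2 and 8 had 3 or more. In 7 of these 27 regions all detected probes were more than 2-fold lower, whereas in 0 regions all were more than 2-fold higher. No region had probes past 2-fold in both directions. Spots in areas where neighbouring spots had changed together held 3 of the 27 higher and 3 of the 53 lower probes, and 5.51% of all detected region probes.

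**Figure D3:**
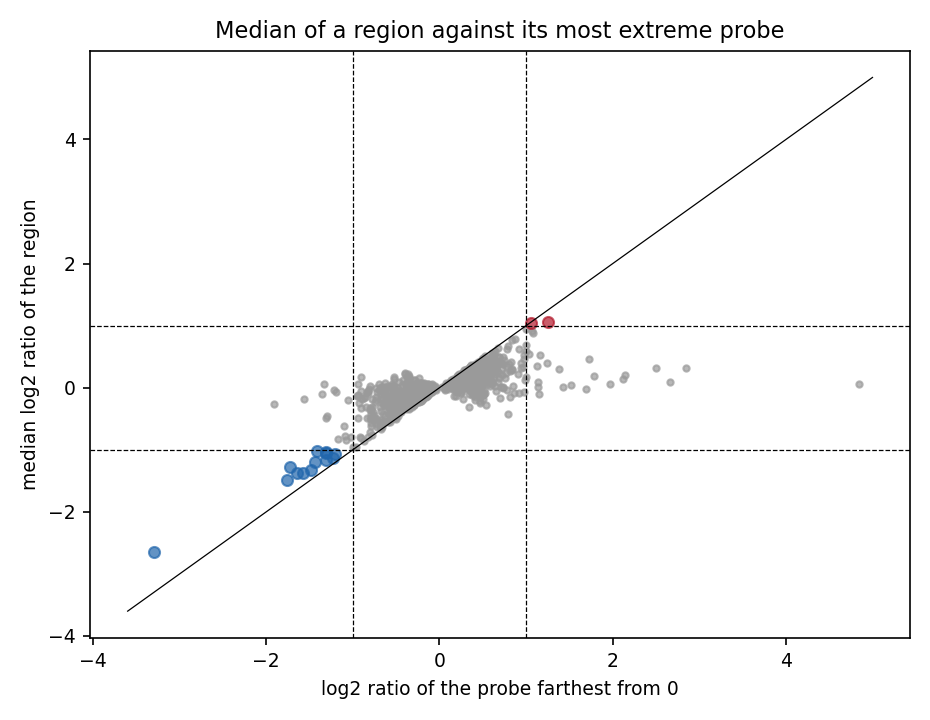
Median log2 ratio of each measured region (y axis) against the ratio of its probe farthest from 0 (x axis). The solid line marks equal values, dashed lines 2-fold, blue the 13 lower and red the 2 higher regions. To the right, regions with a probe far above 1 keep medians near 0, the outermost with a probe at 4.84 and a median of 0.06, whereas to the left the medians follow the most extreme probe more closely.

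The 5 regions with the widest ranges each had 1 probe far above the others. At chr5:33773382-33776739 (reverse) a probe went from an intensity of 38.5 to 1102.7 (4.84 ± 0.24), while the other 2 probes had ratios of -0.05 and 0.06. At chr15:61984389-62102500 (reverse) a probe went from 410.4 to 2324.7 (2.50), and the other 7 detected probes lay between -0.14 and 0.55. At chr9:106170918-106177894 (forward) the outlying probe had 2.14 beside -0.48 and 0.20. The outlying probes of chr6:83368261-83407280 (forward, 2.84 beside -0.03 and 0.32) and chr7:16584852-16657252 (reverse, 2.66, with the other 5 between -0.12 and 0.36) lay in an area where neighbouring spots had changed. The medians of these 5 regions were 0.06 to 0.32, whereas the mean over the probes put the first at 1.62 and the chromosome 6 region at 1.04.

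Both strands of the same coordinates were members for 748 stretches. Both strands were measured in 129 of them, 1 strand in 247 and neither in 372. Over the 129 pairs, which share their 2 arrays and their place but not their probes, the medians of the strands had a Pearson correlation of 0.18 and a Spearman correlation of 0.17, and of 0.23 (Pearson) without the 2 pairs that differed most. In only 3 of the 129 pairs did both strands have a mean level above 0. The median range between probes was 0.49 in measured regions with a mean level of -2 or below and 0.25 in those above 0. The part of dim signal in these correlations was not tested. The signs were the same in 74 pairs. The absolute difference between strands had a median of 0.18 on the log2 scale, was over 0.5 in 11 pairs and over 1 in 2. In 0 pairs did both strands pass 0.5 in the same direction, and in 5 pairs both passed 0.3.

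**Figure D4:**
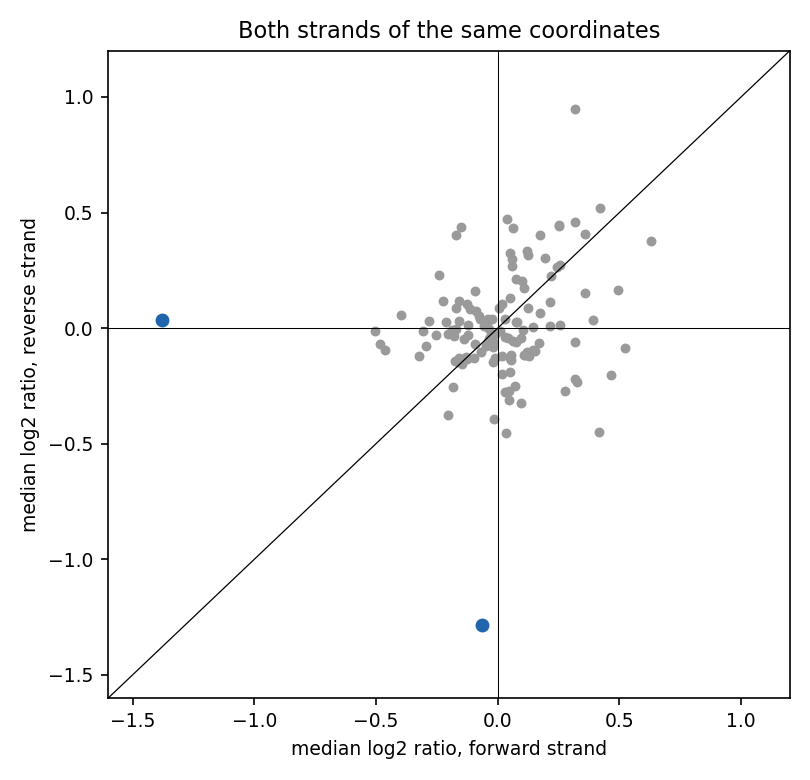
Median log2 ratio of the forward strand (x axis) and of the reverse strand (y axis) of the 129 coordinate stretches with both strands measured. The solid diagonal marks equal ratios. The 2 blue points, which differ by more than 1, lie at -1.38 and 0.03 (chromosome 10) and at -0.07 and -1.28 (chromosome 5), and the other pairs gather around 0.

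At chr10:117021051-117038683 only the forward strand was past 2-fold. Its 5 probes lay between -1.64 and -1.13, and the 4 detected probes of the reverse strand between -0.05 and 0.04. The probe ranges of the strands did not overlap. At chr5:22801058-22939737 the reverse strand had a median of -1.28 and the forward strand of -0.07, but the forward probes ran from -0.69 to 0.98 and the ranges overlapped.

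At 9 more stretches the strands differed by over 0.5 but less than 1. At chr5:125190100-125209625 the 5 forward probes had intensities of 5704.2 to 36092.1 before loading and 7571.8 to 48077.6 at 24 h, with ratios of 0.33 to 0.45, while the 6 detected reverse probes lay between -1.30 and 0.38 with a median of -0.45. At chr8:119090566-119097735 the forward median was -0.15 (3 probes, -0.28 to -0.11) and the reverse median 0.44 (5 probes, 0.36 to 0.58), with no overlap. At chr1:183783306-183834531 both medians were higher, with 0.32 over 9 forward probes (-0.09 to 0.94) and 0.95 over 3 reverse probes (0.87 to 1.00). The ranges overlapped. Both strands were dim, with intensities before loading of 23.7 to 74.8 (forward) and 38.3 to 46.7 (reverse). Normexp gave 0.465 for the reverse strand. In 16 of the 129 pairs the probe ranges of the strands did not overlap. With as few as 3 detected probes on a strand, ranges can separate by random spread alone, and no background share was worked out.

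The medians of regions that overlap or neighbour each other were more strongly correlated on the same strand than on opposite strands, whereas the median size of the difference within a pair was 0.17 to 0.22 for either. The 130 pairs of measured regions that overlap on the same strand had a correlation of 0.74 between their medians, and the 26 pairs that lie apart by less than 10 kb on the same strand had 0.73. On opposite strands the values were 0.19 for 96 pairs that overlap with different coordinates and 0.28 for 18 pairs that lie apart. The median absolute difference was 0.17 and 0.22 for the overlapping and separate same-strand pairs, and 0.21 and 0.19 for those on opposite strands. The signs were the same in 81 of the 130 overlapping same-strand pairs and in 57 of the 96 on opposite strands. These correlations run across regions on the same 2 arrays, and the levels of the regions were not compared between the kinds of pair. A region can enter several pairs, so the pairs are not independent, and overlapping regions may read the same RNA. Where both regions of a same-strand pair were past 0.5, which held in 10 overlapping and 3 separate pairs, both had the same direction. Most of the 10 overlapping pairs came from the loci on chromosomes 5 and 14 described below, so they stand for few loci. No opposite-strand pair had both regions past 0.5.

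The largest group of lower regions was on the reverse strand of chromosome 5. Here 4 measured regions overlap within 138.7 kb, with medians of -1.28 (chr5:22801058-22939737), -1.12 (chr5:22887983-22939658), -1.06 (chr5:22890322-22939119) and -0.72 (chr5:22928221-22939127). The regions at -1.12 and -1.06 were bright, with median levels of 2.78 and 2.80 before loading and 1.62 and 1.61 at 24 h, and their 6 probes had ratios between -1.23 and -1.05. The 6 detected probes of the longest region had -1.72, -1.66, -1.43, -1.14, -0.45 and 0.43. A further region of the locus had 2 detected probes and was not measured. Normexp kept the 2 bright regions past 2-fold, at -1.11 and -1.07, and gave -0.73 for the longest. The region at -1.06 was within 2-fold under median scaling (-0.96) and spike-in scaling (-0.94), and the longest with the mean over its probes (-0.99).

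On the forward strand of chromosome 14, chr14:21437920-21464655 (-0.95), chr14:21460230-21461364 (-1.01) and chr14:21461716-21462270 (-0.79) lie inside each other or side by side. Their 9 detected probes had ratios between -1.42 and -0.68, so that every probe of the locus that could be read was lower at 24 h. On chromosome 1, the reverse-strand region chr1:183783306-183834531 (0.95) overlaps the brighter chr1:183832694-183834125 (0.64), whose 3 probes had 0.62, 0.64 and 0.67 and went from 495.4 to 896.8 before loading to 780.5 to 1401.0 at 24 h. Further same-strand pairs were lower together, with -0.84 and -0.76 on chromosome 2 (chr2:143991240-143991597 and chr2:143992000-143992611, forward), -0.63 and -0.62 on chromosome 4 (chr4:88542373-88589148 and chr4:88583425-88584070, reverse) and -0.80 and -0.56 on chromosome 18 (chr18:84759512-84760012 and chr18:84760623-84761084, forward).

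**Figure D5:**
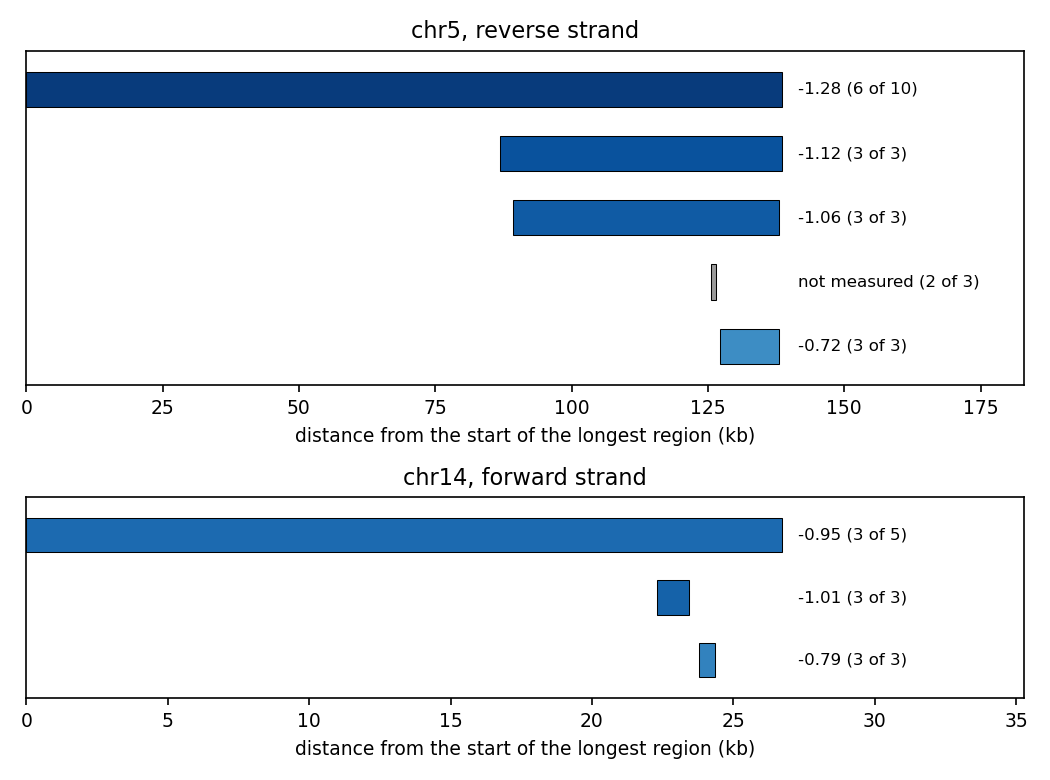
Member regions of the locus on the reverse strand of chromosome 5 and of the locus on the forward strand of chromosome 14, drawn to scale by distance from the start of the longest region (kb). Darker blue is a lower median log2 ratio, grey is not measured, and the text gives the median and the number of detected probes of all probes. The medians are -0.72 to -1.28 on chromosome 5 and -0.79 to -1.01 on chromosome 14.

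On the reverse strand of chromosome 8, chr8:19783770-19784669 (-1.19) lies inside a region of 360001 bases that was not measured, and 2 other measured regions inside it, chr8:19692532-19694101 and chr8:19887285-19889397, had medians of -0.09 and -0.05 with probes between -0.20 and 0.20. The reverse-strand region chr6:126768864-126769326 (1.06) lies inside chr6:126766225-126771309, none of whose 5 probes was detected on both arrays. Over all 3382 regions, merging those that overlap on the same strand left 2679 loci, of which 753 held a measured region and 102 more than 1. Loci with a region more than 2-fold higher numbered 2, and those with a lower one 11.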

How the data were processed

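Total RNA before loading and 24 h after loading was hybridised to SurePrint G3 Mouse arrays (8 × 60 K), 1 array for each time, on a shared slide. The authors deposited each spot's intensity as Feature Extraction 10.10.1.1 processed it, with background subtracted and no normalization between arrays, together with flags and spot positions; the deposited table of intensity values differs from it by at most 0.497%. Per the file headers the coordinates are on mm9. Outlier spots (141 before loading and 138 at 24 h) were left out, spots of 1 probe were averaged to 55678 probes, and log2 intensity minus the 75th percentile of the array was used. A probe is detected when well above background on both arrays. A region with at least 3 detected probes is described by their median, and is counted past 2-fold when the median log2 ratio is beyond 1 in size. With 1 array per time point, the number of arrays limits the precision.

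Regions named are those past 2-fold, the 10 highest and 10 lowest medians, the 5 widest ranges, the 5 brightest, stretches with both strands measured, and regions detected on 1 array only; other regions named were chosen after their values were seen. The members and lists were chosen with earlier results of these data known. The 14 alternatives were other scalings (median, quantile, loess, 7 spike-in probes), normexp with an offset of 50, other detection rules and other region summaries; 1 was added after seeing the data. Normexp used the median spot intensity because the files hold no mean. Disturbed areas are spots with at least 3 neighbours within 100 µm changed more than 2-fold in the same direction. Python 3.11.15 (numpy 2.4.6, pandas 2.3.3, scipy 1.17.1) and R 4.3.3 with limma 3.58.1 were used, and the scripts were tested on simulated data.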

Additional observations from a re-analysis of the deposited data

How the results depend on the processing

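The count of lower regions was 9 to 14 under the other scalings, the authors' value table, leaving out disturbed areas, keeping flagged spots, the mean and the brightest probe, and 11 when overlapping regions were counted as 1 locus, an alternative chosen after seeing the data. Higher regions numbered 4 with median, quantile and spike-in scaling and with the brightest probe, which kept 0 of the 2. Normexp left 0 higher and 5 lower regions. With every probe of the 3382 regions, detected or not, 16 were higher and 52 lower, and the median range between probes was 0.95. With probes detected on at least 1 array 5 regions were higher and 19 lower, and with at least 2 detected probes 5 and 16. Taking probes above 95% of the negative controls in place of the software's call, 70.3% of region probes were detected before loading and 67.3% at 24 h. None of the 15 regions past 2-fold changed sign in these alternatives. The cause of these shifts was not tested. Median scaling moved the median of all regions by 0.10 and spike-in scaling by 0.12 on the log2 scale. No paired analysis was possible because each time point has 1 array. Dim signals limit what can be read: 2499 of the 3382 regions had fewer than 3 detected probes.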
